A study of Mus musculus with 8 samples.

Results

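The difference between 2 genotype effects was measured for each gene, the effect of Hira loss in cultures at day 15 of cardiomyocyte differentiation minus the effect in undifferentiated cells at day 0. The genes were those with an FPKM (a fragment count scaled by transcript length and library size) of 1 or more in at least 2 libraries, 14337 of the 24421 genes in the table. The lowest gene inside this limit was AA415398, whose second-highest FPKM was 1.0, and the highest outside was Gm13498 at 0.9997. Messenger RNA was sequenced in mouse embryonic stem cells of the wild type (WT) line W9.5 and of a single Hira-null clone, both of which carry HA-tagged H3.3. Day 0 cells were kept undifferentiated in serum with LIF. Day 15 cultures had been formed as hanging drops into embryoid bodies and plated, and they were mixed cultures with beating areas rather than sorted cardiomyocytes. There were 2 libraries, each from its own biological sample, in each of the 4 groups, WT day 0, Hira-null day 0, WT day 15 and Hira-null day 15, 8 libraries in all. In bulk RNA, at day 0 as at day 15, fewer cells of a type and less RNA per cell cannot be told apart.

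Hira encodes the central subunit of a chaperone complex that places the histone variant H3.3 into chromatin without DNA replication, at active genes, enhancers and promoters. Embryonic stem cells can be kept without it, and the gene is needed for development of the mouse heart. Undifferentiated stem cells express pluripotency factors, whereas hanging drop cultures hold derivatives of several germ layers. A genotype effect at day 15 is therefore read on another set of active genes than at day 0. How uniform the day 0 cells were was not measured. A genotype effect is given throughout as the mean log2(FPKM + 1) of the Hira-null libraries minus that of WT, and the difference as the day 15 effect minus the day 0 effect. This scale understates the change of genes at low FPKM.

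Hira, the targeted gene (chromosome 16, 18877130 to 18970402, mm9), was at FPKM 27.3 and 28.5 in the WT libraries and at 12.4 and 11.4 in the Hira-null libraries at day 0. At day 15 it was at 15.8 and 15.5 in WT and at 16.7 and 19.8 in the libraries labelled Hira-null. The Hira-null libraries were thus lower than both WT libraries at day 0 and not lower at day 15. The effect was -1.17 (SE 0.10, adjusted p = 8.48e-05) at day 0 and 0.20 (SE 0.11, adjusted p = 0.167) at day 15, and the difference was 1.37 (95% interval 1.03 to 1.71, adjusted p = 0.000444). The level of Hira RNA at day 15 therefore goes against the label, and each direction at day 15 below is that of the libraries labelled Hira-null. The values are sums over the gene, which shares exons with Gm15797, and cannot show which exons were read. The identity of these libraries was not tested, and the next gene, picked for its values, cannot settle it. H19, an imprinted noncoding RNA and a gene chosen after its values were seen, was at FPKM 579.9 and 589 in WT and 20.3 and 20.8 in Hira-null at day 0. At day 15 it was at 3890 and 3941 in WT and 101 and 117 in the libraries labelled Hira-null, and the 2 groups did not overlap at either day.

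The genotype effect differed between the days for 5044 genes, 35.2% of those tested, by limma with Benjamini-Hochberg adjustment at 0.05. The day 15 effect was the more positive for 2511 genes (17.5%) and the more negative for 2533 (17.7%). A difference of at least 1 on the log2 scale was found for 780 and 1198 of them. At day 0 the effect itself was past the test for 5765 genes (40.2%), and at day 15 for 5363 genes (37.4%). Both days were past the test for 2464 genes, with the same sign for 1726 and with opposite signs for 738. Over all tested genes the 2 effects had a Pearson correlation of 0.188 and a Spearman correlation of 0.188, which is a description across 14337 genes that share libraries and are not independent. The median difference was 0.017 and its quartiles were -0.442 and 0.408. Without WT day 15 replicate 1 the counts were 1422 and 1471, the lowest of any library left out, and without WT day 15 replicate 2 they were 1587 and 1692.

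**Figure D1:**
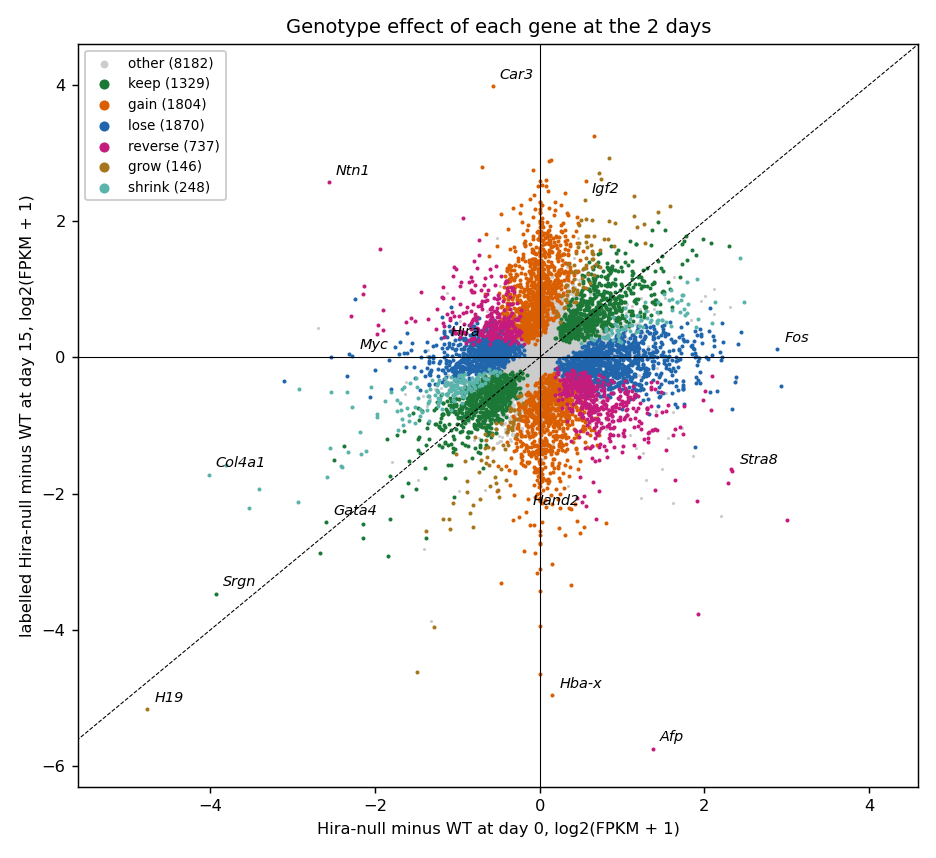
Genotype effect of each gene at day 0 (x axis) and at day 15 (y axis) as differences in log2(FPKM + 1), for the 14316 tested genes with a usable symbol, coloured by class, with the dashed line marking equal effects. Most coloured genes lie near one axis, having an effect at one day, while H19, Srgn and Gata4 lie near the dashed line and Ntn1, Stra8 and Afp in the quadrants of opposite sign.

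Genes were sorted into classes from the 3 tests. A gene kept its effect when it was past the test at both days with the same sign and the difference was not past it, and 1332 genes (9.29%) did. A gene gained an effect when the difference and the day 15 effect were past the test and the day 0 effect was not, and 1808 genes (12.6%) did. The effect was lost, by the same rule with the days exchanged, for 1873 genes (13.1%). It reversed, with opposite signs at the 2 days and all 3 tests passed, for 738 genes (5.15%). It grew for 146 genes (1.02%) and shrank for 248 (1.73%), with the same sign at both days and a difference past the test. Another 1428 genes were past the test at day 0 alone and 1091 at day 15 alone with no difference shown, 231 had only the difference past it, and 5442 (38%) had no call. The class sizes depended on single libraries. Without WT day 15 replicate 1, 781 genes kept, 936 gained and 277 reversed the effect. Without WT day 15 replicate 2 these counts were 734, 1016 and 338. Without Hira-null day 0 replicate 1, 1202 genes lost and 463 reversed the effect, and without Hira-null day 0 replicate 2 1221 and 471 did.

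**Figure D2:**
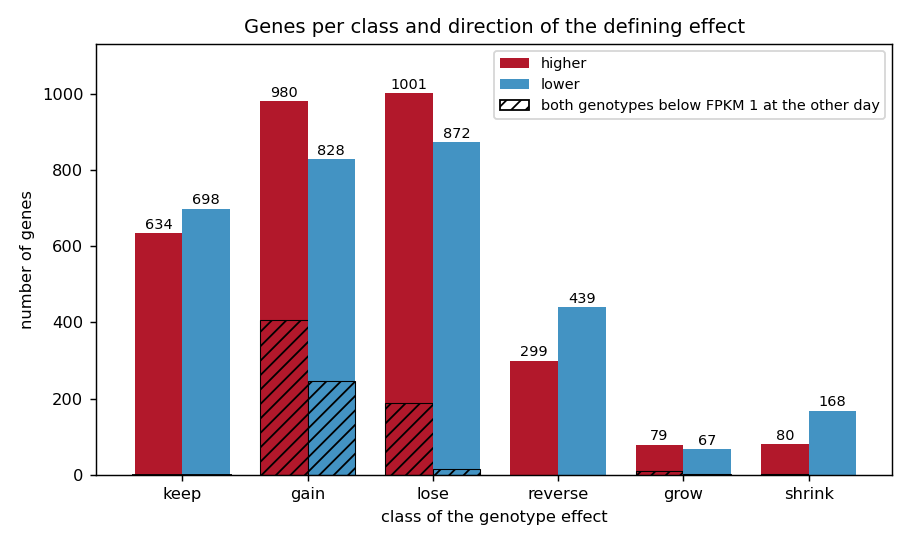
Number of genes (y axis) in each class (x axis), split by the direction of the effect that defines the class (day 0 for lost and day 15 for the others), with the hatched part below a mean FPKM of 1 in both genotypes at the other day. Of the 980 genes that gained a higher level, 406 were below this level at day 0, against 15 of the 872 genes that lost a lower level and were below it at day 15.

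Among the genes that kept the effect, 634 (4.42%) were higher and 698 (4.87%) were lower in the Hira-null libraries. A difference that misses the test does not show equal effects. The median half-width of its 95% interval was 0.442 for the higher and 0.363 for the lower genes, beside median day 15 effects of 0.644 and -0.617. The kept lower genes were not spread evenly over the genome. Chromosomes 8 and 11 hold 1789 of the tested genes (12.5%), and 367 of the 698 kept lower genes (52.6%) but 24 of the 634 kept higher genes (3.79%) were on them. Of all genes on these chromosomes, 20.5% were in the kept lower class, against 2.59% elsewhere. The median effect over chromosome 8 was -0.353 at day 0 and -0.412 at day 15, and over chromosome 11 it was -0.312 and -0.370. Medians of the other autosomes and X, 18 in all, ran from -0.062 to 0.198 at day 0 and from 0.009 to 0.108 at day 15. Chromosome Y had 5 tested genes, with medians of -0.388 and -0.81. Each of 4 stretches of both chromosomes, cut by gene order, had a median below 0 at both days, from -0.24 to -0.478 on chromosome 8 and from -0.158 to -0.405 on chromosome 11. Each single library labelled Hira-null showed it, with medians of -0.34 and -0.337 at day 0 and -0.439 and -0.387 at day 15 on chromosome 8. The share of genes with a difference past the test was 37.4% on both chromosomes together and 35.7% elsewhere. The number of copies of these chromosomes was not measured, and an effect of Hira loss cannot be told apart from a property of the single clone. The classes over the genes of other chromosomes alone are given among the processing alternatives.

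**Figure D3:**
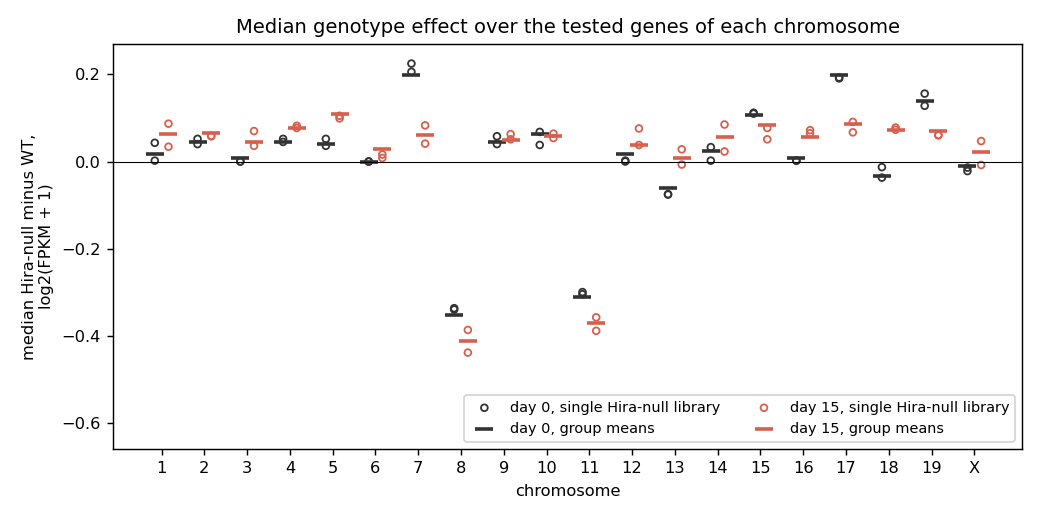
Median genotype effect in log2(FPKM + 1) (y axis) over the tested genes of each autosome and of X (x axis; Y, with 5 tested genes, is not drawn) at day 0 and day 15, with lines for the group means and rings for each library labelled Hira-null against the WT mean. Chromosomes 8 and 11 lie near or below -0.3 at both days and in each library, while every other chromosome drawn lies above -0.1.

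The largest kept effects toward a lower level included cardiac transcription factors. Gata4, a zinc finger factor of heart and endoderm, was at FPKM 15.7 and 15.8 in WT and 1.93 and 1.64 in Hira-null at day 0, and at 23.1 and 20.5 and 2.94 and 3.65 at day 15. Its effect was -2.59 at day 0 and -2.41 at day 15, with a difference of 0.18 (95% interval -0.26 to 0.61, adjusted p = 0.502). Genes named from a class were required to have their groups apart at the days that define it. Gata6, a related factor of endoderm and cardiac mesoderm whose exons overlap a gene model of opposite strand, had effects of -2.15 and -2.65. Hand1, a basic helix-loop-helix factor of heart and extraembryonic tissue that lies on chromosome 11, had effects of -2.14 and -2.45, beyond the median of that chromosome. Srgn, which encodes the proteoglycan serglycin, had FPKM 28.2 and 29.4 against 0.931 and 0.971 at day 0 and 13.4 and 14.1 against 0.598 and 0.112 at day 15. Meis1 (chromosome 11), a homeodomain cofactor, kept effects of -1.08 and -1.27 while its WT level went from 1.22 and 1.995 to 42.9 and 46.1. Myh7, the slow myosin heavy chain, kept effects of -0.81 and -0.79 with an interval for the difference of -0.53 to 0.58.

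Kept higher genes included Bmp7, a secreted bone morphogenetic protein. It was at FPKM 1.78 and 2.03 in WT and 8.09 and 9.18 in Hira-null at day 0, and at 6.65 and 6.19 and 19.97 and 25.2 at day 15. Its effects were 1.73 and 1.66, and the interval of the difference ran from -0.53 to 0.39. Rpl39l, a ribosomal protein paralogue known from testis, had effects of 1.53 and 1.87 and lies outside the pattern of the other ribosomal genes below. As a near copy of Rpl39 it may share reads with it. Fbxo2, a ubiquitin ligase subunit that recognises sugar chains, had effects of 2.30 and 1.64, and Prr19 had effects of 1.98 and 1.73. Pou5f1, the pluripotency factor OCT4, was higher in the Hira-null libraries at both days, at 641 and 601 against 904 and 911 and then at 86.2 and 77.8 against 139 and 149.5. Its difference of 0.26 (adjusted p = 0.0785) was not past the test.

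An effect was gained toward a higher level by 980 genes (6.84%) and toward a lower level by 828 (5.78%). Of these, 406 (41.4%) and 246 (29.7%) had a mean below FPKM 1 in both genotypes at day 0, where a genotype effect could hardly be seen. The remaining genes were expressed at day 0. Kit, a receptor tyrosine kinase of blood, germ and cardiac progenitors, was at 29.8 and 29.4 in WT and 30.1 and 28.7 in Hira-null at day 0, where the groups overlapped. At day 15 it was at 27.5 and 25.9 in WT and at 6.95 and 5.88 in the libraries labelled Hira-null, a difference of -1.89 (SE 0.14, adjusted p = 8.68e-05). Pecam1, an adhesion molecule that both stem cells and endothelium express, was at 54.6 and 58.2 in WT and 61.2 and 65.6 in Hira-null at day 0, and at 15.96 and 15.004 and 3.87 and 4.44 at day 15. The difference was -1.84 (SE 0.13), and Pecam1 lies on chromosome 11. Des, which encodes the muscle filament protein desmin, was at 8.599 and 7.53 against 8.31 and 9.77 at day 0 and at 24.8 and 25.8 against 1.61 and 2.95 at day 15, with a difference of -3.18 (SE 0.27). The day 0 effects of these genes were not past the test.

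Hand2, Isl1, Tbx2 and Mef2c, which encode transcription factors of the heart fields, chambers and outflow tract, also gained a lower level. Hand2 (chromosome 8) was at FPKM 0 and 0.265 in WT and listed at 0 in both Hira-null libraries at day 0, and at day 15 at 37.8 and 34.8 in WT and 7.03 and 6.44 in the libraries labelled Hira-null. The difference was -2.10 (SE 0.23, adjusted p = 0.000444). Isl1 was at 8.66 and 10.1 in WT and 1.56 and 2.41 in the labelled libraries at day 15, with a difference of -1.84 (SE 0.26, adjusted p = 0.00126). Tbx2 (chromosome 11) was at 25.5 and 25.4 and at 4.41 and 6.16, with a difference of -2.15 (SE 0.30, adjusted p = 0.00125). Mef2c was at 2.91 and 3.21 and at 1.15 and 1.09, with a difference of -0.87 (SE 0.22, adjusted p = 0.0158). The groups did not overlap at day 15 for any of these genes, as for all 828 genes of the gained lower class. All were below FPKM 1 in every day 0 library, so what differs between the days is here mainly that they were expressed at one of them. With limma voom on the recovered fragments the calls for Hand2, Isl1 and Mef2c were lost, and the value for Mef2c changed sign to 0.307. With a pseudocount of 0.1 the calls for Hand2 and Mef2c were lost, and without Hira-null day 0 replicate 1 that for Mef2c.

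The globins Hba-x, Hbb-bh1 and Hbb-y, which embryonic red cells use, also gained a lower level. At FPKM 0.368 or less in every library outside WT day 15, they met the expression limit only through that group. No other direction was therefore open to them at day 15. Hba-x was at 30.3 and 30.0 in WT at day 15, while the labelled libraries both list it at 0, so no fold is given. Hbb-bh1 was at 26.6 and 21.7 and Hbb-y at 10.5 and 7.86 in WT, and both were listed at 0 in the labelled libraries. These are the 3 more negative members of an erythroid list with 10 tested genes, of which another 3 were more positive. Each share was 30%, beside 17.7% and 17.5% of all genes. Tcf21, a factor of epicardium and mesothelium, was listed at 0 in every day 0 library and was at 18.9 and 20.2 in WT and 1.19 and 0.685 in the labelled libraries at day 15. Without WT day 15 it too would have missed the expression limit. Of 17 tested genes on the epicardium and mesothelium list, Tcf21 and 1 other were more negative (11.8%, beside 17.7% of all genes). Another 6 were more positive (35.3%, beside 17.5%).

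In the other direction, Car3, the muscle carbonic anhydrase, was at FPKM 0.889 and 2.24 in WT and 1.14 and 0.298 in Hira-null at day 0, where the groups overlapped. At day 15 it was at 15.2 and 16.6 in WT and 253 and 278 in the libraries labelled Hira-null, a difference of 4.55 (SE 0.40, adjusted p = 0.000175). Fabp7, a fatty acid binding protein of radial glia, was listed at 0 in all day 0 libraries and was at 46.2 and 40.1 in WT and 218 and 180.2 in the labelled libraries. Zic1, a zinc finger factor of the neural plate that shares exons with Zic4 on the other strand, was at 4.25 and 5.50 and at 31.8 and 37.1 at day 15, with a difference of 2.52 (SE 0.23). Wif1, a secreted WNT inhibitor, was at 2.41 and 1.45 and at 21.0 and 19.96, with a difference of 2.76 (SE 0.28). T, the mesoderm factor brachyury, was at 14.6 and 13.3 and at 51.01 and 50.4 at day 15 after values under 1 in all day 0 libraries, with a difference of 1.59 (SE 0.27). Its call was lost with a pseudocount of 0.1 and with voom. Of 19 tested genes of the primitive streak and mesendoderm list, 8 were more negative (42.1%, beside 17.7% of all genes, and 2 with voom). Only 2, T included, were more positive (10.5%, beside 17.5%). Nppa, which encodes atrial natriuretic factor, was listed at 0 at day 0 and at 0.384 and 0.721 in WT against 4.87 and 5.20 at day 15, opposite in direction to Des. It met the expression limit only through the labelled libraries, so a higher level was the only direction open to it. With voom the calls for Fabp7, Zic1 and Nppa were lost as well.

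An effect was lost by 1001 genes (6.98%) that were higher and 872 (6.08%) that were lower in the Hira-null libraries at day 0. Only 189 (18.9%) and 15 (1.72%) of them were below FPKM 1 in both genotypes at day 15, so most were still expressed. Ccnd2, a D-type cyclin that drives entry into the cell cycle, was at FPKM 16.6 and 13.2 in WT and 1.89 and 1.62 in Hira-null at day 0. At day 15 it was at 118 and 116 in WT and 117 and 118 in the labelled libraries, which overlapped, and the difference was 2.53 (SE 0.16, adjusted p = 7.04e-05). Myc, a growth factor-responsive transcription factor of stem cells, was at 23.0 and 20.8 against 3.82 and 3.65 at day 0 and at 17.0 and 16.4 against 14.5 and 19.6 at day 15, where it also overlapped, with a difference of 2.29 (SE 0.20). Dab2, an endocytic adaptor of extraembryonic endoderm, was at 18.7 and 21.1 against 1.67 and 1.21 and then at 30.4 and 29.1 against 23.6 and 22.7. Its day 15 effect of -0.35 (adjusted p = 0.0548) was near the threshold, so that its place in this class rather than among the shrinking effects is narrow. Ankrd1, a sarcomere and stress-responsive protein, was at 11.9 and 7.98 against 1.15 and 1.10 at day 0 and at 22.7 and 25.4 against 20.8 and 18.7 at day 15.

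Among genes that lost a higher level, Fos, an immediate early factor, was at FPKM 2.85 and 4.58 in WT and 32.8 and 33.5 in Hira-null at day 0. At day 15 it was at 78.0 and 74.1 in WT and 74.1 and 92.4 in the labelled libraries, a difference of -2.76 (SE 0.24, adjusted p = 0.000163). Micall2, a regulator of junction traffic, was at 0.853 and 1.31 against 15.6 and 13.9 at day 0 and at 3.299 and 3.39 against 2.38 and 2.14 at day 15. Ndufa4l2, a hypoxia-induced relative of a respiratory chain subunit that shares exons with Shmt2 on the other strand, was at 19.7 and 26.6 against 129 and 120.1 at day 0 and at 0.466 to 1.54 in all 4 libraries at day 15. Fos thus lost the effect at a high level in both genotypes, and Ndufa4l2 with the near loss of its transcript.

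Of the 738 genes that reversed, 299 (2.09%) went from lower to higher and 439 (3.06%) from higher to lower. Ntn1, which encodes the guidance cue netrin, went furthest toward higher. It was at FPKM 15.9 and 17.9 in WT and 1.47 and 2.72 in Hira-null at day 0, and at 46.2 and 40.3 in WT and 250.4 and 274 in the labelled libraries at day 15, with effects of -2.56 and 2.57 and a difference of 5.14 (95% interval 4.57 to 5.70, adjusted p = 1.98e-05). Ntn1 lies on chromosome 11, where the median effect was below 0 at both days, and shares exons with a gene model on its own strand. Crim1, a membrane protein that binds bone morphogenetic proteins, was at 15.3 and 17.6 against 2.79 and 3.15 and then at 26.8 and 28.0 against 55.7 and 60.1, with a difference of 3.19 (SE 0.15). Cdh6, a cadherin of kidney and neural tissue, had effects of -1.94 and 1.59, and En2, a midbrain and hindbrain homeodomain factor, of -0.93 and 2.05. Fgfr2, a fibroblast growth factor receptor, had effects of -1.05 and 1.19, and Ina, a neuronal intermediate filament, of -2.14 and 0.93. Crim1, Fgfr2 and Ina share exons with neighbouring genes, so their values are less certain.

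Toward lower, Apoa1, an apolipoprotein of visceral endoderm and liver, was listed at 0 in both WT libraries and was at 2.95 and 2.65 in Hira-null at day 0, then at 19.6 and 16.9 in WT and 0.795 and 0.106 in the labelled libraries. Tyrobp, a signalling adaptor of myeloid cells, was listed at 0 in WT and was at 4.89 and 1.41 in Hira-null at day 0, and at 14.8 and 14.02 against 2.97 and 2.23 at day 15. Myl7, the atrial myosin light chain, was at 11.1 and 9.83 against 18.8 and 16.01 at day 0 and at 68.9 and 64.9 against 12.4 and 11.9 at day 15, with a difference of -3.05 (SE 0.15, adjusted p = 1.98e-05). Nanog, a pluripotency factor, was at 252 and 271 against 303 and 307 and then at 35.1 and 33.5 against 21.4 and 22.5. Its effects were 0.22 and -0.62, with a difference of -0.84 (SE 0.10, adjusted p = 0.00056), so that Nanog and Pou5f1, which were both higher at day 0, stood in opposite directions at day 15. The difference between these genes was not tested.

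**Figure D4:**
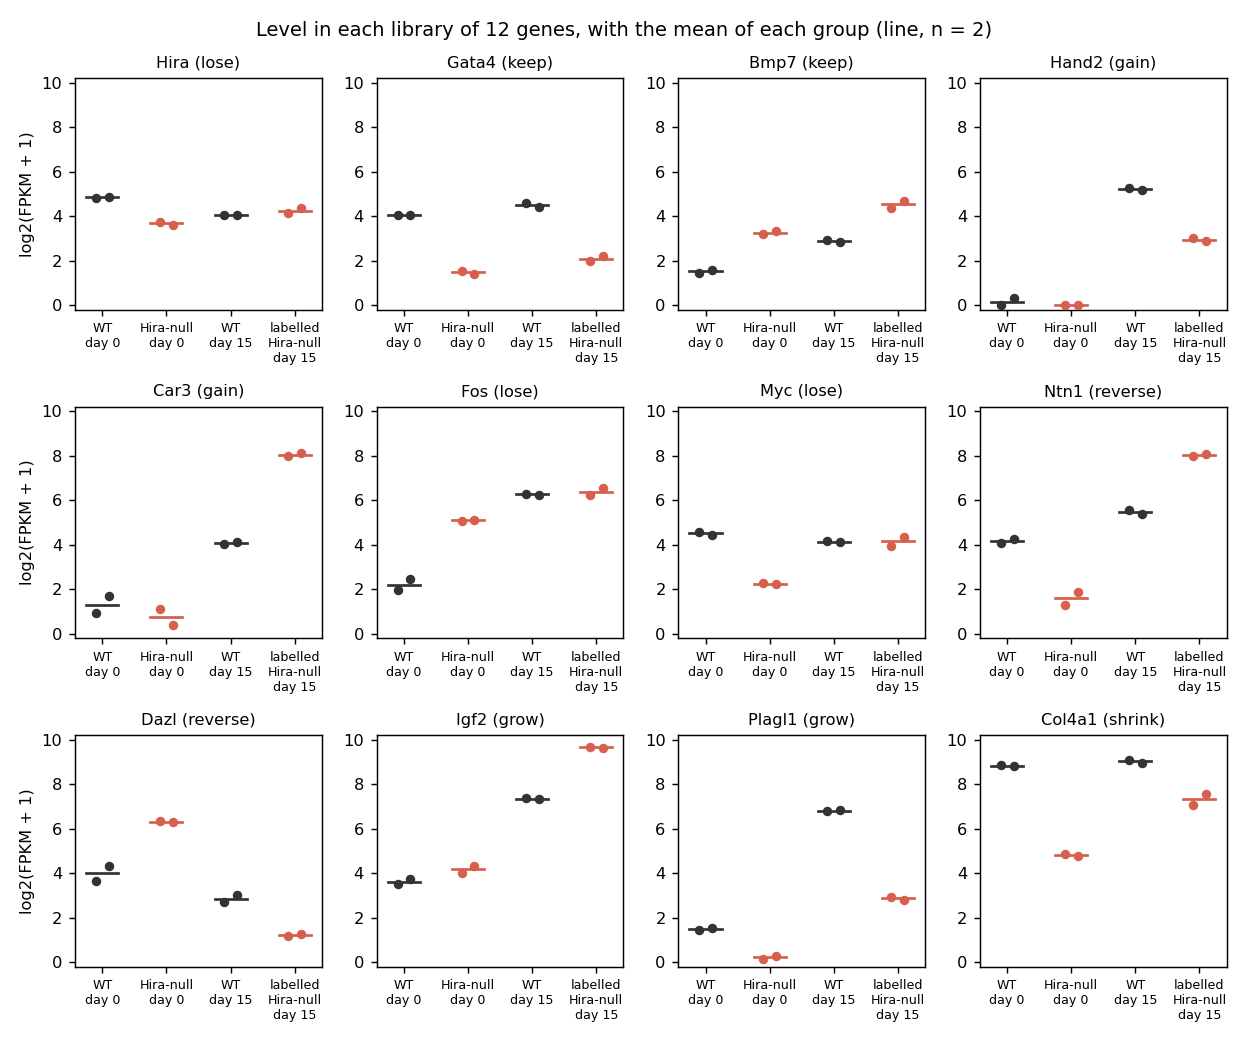
Level of 12 genes as log2(FPKM + 1) (y axis) in each of the 8 libraries by group (x axis), with points for libraries and lines for the mean of each group (n = 2). Gata4 and Bmp7 are apart at both days, Hand2 and Car3 at day 15, Fos and Myc at day 0, and Ntn1 and Dazl change order between the days.

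Ribosomal protein genes, which encode the subunits of the cytosolic ribosome, moved together from higher to lower. Of 77 tested, 70 had a more negative effect at day 15 (90.9%, beside 17.7% of all genes) and 1, Rpl34, a more positive one, which lost its call with voom and without WT day 15 replicate 1. Their median effect was 0.381 at day 0 and -0.333 at day 15, with a median difference of -0.702. By class 35 reversed (beside 5.15% of all genes), 17 lost a higher level (beside 6.98%) and 15 gained a lower one (beside 5.78%). The differences were small, with 5 of the 70 at least 1 in size. Their summed FPKM was 55361 and 58872 in WT and 74186 and 74456 in Hira-null at day 0, and 33004 and 33738 in WT and 25977 and 26357 in the labelled libraries at day 15, so the groups exchanged order. Rpl28 was at 987 and 1011 against 1460 and 1512 and then at 527 and 555 against 336 and 329, a difference of -1.27 (SE 0.08, adjusted p = 7.04e-05). These genes are short and have many processed copies in the genome, and reads of such copies may be split. The difference also moved with transcript properties over all genes. Its median went from 0.178 in the fifth of genes with the lowest GC content to -0.166 in that with the highest, and from -0.109 in the shortest to 0.152 in the longest. With a curve for GC content and length subtracted, an alternative chosen after the data were seen, 61 of the ribosomal genes were more negative.

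Glycolysis and hypoxia genes behaved alike. Of 35 tested, 27 had a more negative effect at day 15 (77.1%, beside 17.7% of all genes). By limma 0 had a more positive one (1 at an unadjusted p under 0.05 and 0 by voom), and 14 reversed (beside 5.15%). The median effect was 0.378 at day 0 and -0.526 at day 15, and with GC content and length subtracted 26 were more negative. Aldoa, the aldolase of glycolysis, was at FPKM 1422 and 1402 in WT and 2608 and 2589 in Hira-null at day 0, and at 358 and 335 and 187 and 219 at day 15, with a difference of -1.65 (SE 0.11, adjusted p = 7.74e-05). Eno2, an enolase known from neurons and hypoxic cells, was at 1.70 and 1.44 against 5.52 and 6.02 and then at 9.18 and 9.43 against 6.26 and 6.69. Bnip3, a hypoxia-induced mitochondrial protein, had effects of 0.38 and -1.23, and Ndrg1, another gene known to respond to hypoxia, of 1.02 and -0.71. Oxygen and culture density were not among the measurements.

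Germ cell and meiosis genes, which stem cells hold at low levels under DNA methylation and Polycomb-type repression, had the highest median effect at day 0 of the lists, 0.848. Of 33 tested, 25 were higher and 4 lower in Hira-null at day 0 (beside 20.8% and 19.4% of all genes), and 6 and 8 at day 15. The difference was more negative for 20 (60.6%, beside 17.7% of all genes, and 14 with voom). It was more positive for 3 (9.09%, beside 17.5%, and 2 with voom), and its median was -0.939. By class 13 genes lost a higher level (beside 6.98% of all genes) and 7 reversed (beside 5.15%). Dazl, a germ cell RNA-binding protein, was at FPKM 11.7 and 19.05 in WT and 79.7 and 78.5 in Hira-null at day 0, and at 5.44 and 7.14 against 1.25 and 1.42 at day 15. Its difference was -3.96 (SE 0.29, adjusted p = 8.68e-05). Stra8, the retinoic acid-induced factor of meiotic entry, was at 6.16 and 8.22 against 37.5 and 42.9 and then at 4.30 and 4.34 against 0.617 and 0.722, a difference of -4.01 (SE 0.22). Smc1b, the meiotic cohesin subunit, had effects of 1.31 and -1.18. Sycp3, an axial element protein of meiotic chromosomes that was chosen after its values were seen, was at 2.30 and 4.22 against 18.8 and 17.0 at day 0 and at 0.757 to 2.21 in all 4 day 15 libraries. Taf7l, a germ cell relative of a general transcription factor, had effects of 2.13 and 0.82 and a shrinking difference of -1.31 (SE 0.29), which turned to 0.104 with a pseudocount of 0.1 and to 0.947 with voom, and its day 15 values were 0 and 0.353 against 1.39 and 0.760. Rhox5, a homeobox gene of the testis and the embryo, went the other way, from 146 and 134 against 33.5 and 40.4 to 22.03 and 26.9 against 34.9 and 30.3.

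The 250 bases before the start of 5 of these genes are shown because the list moved together and because germ cell promoters are known to be held silent in stem cells by a Polycomb-type complex of MGA and E2F6, whose partners bind the letters CACGTG and GCGGGAA. Sequences are from RefSeq on GRCm38.p6, another build than the mm9 positions above, 5′ to 3′ on the strand of the gene, with CACGTG and GCGGGAA on either strand in capitals (GCGGGAA on the other strand reads TTCCCGC). The windows are chr17:50293621-50293870 (minus strand) for Dazl, chr6:34920698-34920947 (plus) for Stra8, chr15:85131958-85132207 (minus) for Smc1b, chr10:88459337-88459586 (plus) for Sycp3 and chrX:134476491-134476740 (minus) for Taf7l.
Dazl: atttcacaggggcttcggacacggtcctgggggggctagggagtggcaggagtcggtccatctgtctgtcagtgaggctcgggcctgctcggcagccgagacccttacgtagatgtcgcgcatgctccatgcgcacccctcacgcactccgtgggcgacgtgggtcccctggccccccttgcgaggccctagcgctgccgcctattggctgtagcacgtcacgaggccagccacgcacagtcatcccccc
Stra8: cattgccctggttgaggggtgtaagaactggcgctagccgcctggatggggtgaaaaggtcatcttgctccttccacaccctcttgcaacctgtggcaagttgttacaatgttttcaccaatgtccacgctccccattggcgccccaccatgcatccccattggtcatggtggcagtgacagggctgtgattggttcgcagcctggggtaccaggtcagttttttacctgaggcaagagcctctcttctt
Smc1b: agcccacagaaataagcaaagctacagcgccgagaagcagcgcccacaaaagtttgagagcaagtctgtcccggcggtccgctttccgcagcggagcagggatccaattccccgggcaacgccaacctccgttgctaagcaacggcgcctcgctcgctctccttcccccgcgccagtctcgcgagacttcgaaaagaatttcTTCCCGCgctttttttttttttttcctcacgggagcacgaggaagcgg
Sycp3: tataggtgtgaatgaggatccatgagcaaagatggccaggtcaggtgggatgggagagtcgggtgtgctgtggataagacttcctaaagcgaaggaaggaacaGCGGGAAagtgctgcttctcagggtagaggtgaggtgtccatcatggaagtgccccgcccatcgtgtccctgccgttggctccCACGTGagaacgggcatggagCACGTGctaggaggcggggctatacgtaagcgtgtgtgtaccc
Taf7l: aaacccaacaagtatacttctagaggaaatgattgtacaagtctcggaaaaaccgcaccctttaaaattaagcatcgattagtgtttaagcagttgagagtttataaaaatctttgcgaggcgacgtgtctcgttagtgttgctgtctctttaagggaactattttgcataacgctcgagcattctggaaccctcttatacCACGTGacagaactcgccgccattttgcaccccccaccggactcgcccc
Dazl and Stra8 held neither motif, Smc1b held GCGGGAA once, Sycp3 held both and Taf7l held CACGTG once. A window of this kind was found for 27 of the 33 germ cell genes, and 11 (40.7%) held CACGTG, 4 (14.8%) held GCGGGAA and 12 (44.4%) held either. Over all tested genes with a window, 10665, the shares were 8.56%, 7.05% and 15%. Among the 18 germ cell genes with a window and a more negative difference, 9 held CACGTG and 10 held either. A match is a run of letters and not a measured binding site, and no factor's binding was measured in these libraries.

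Parietal endoderm genes, which encode the thick basement membrane of the embryo, were lower in the labelled libraries at both days with a smaller effect at day 15. Of 22 tested, 18 were lower at day 0 (beside 19.4% of all genes) and 16 at day 15 (beside 18.8%). The difference was more positive for 13 (59.1%, beside 17.5%). By class 8 had a lower effect that shrank (beside 1.17%) and 6 kept a lower effect (beside 4.87%). The median effect went from -1.61 to -0.897. Col4a1, a chain of type IV collagen on chromosome 8, was at FPKM 462 and 454 in WT and 27.9 and 26.8 in Hira-null at day 0, and at 548 and 503 and 133 and 189.8 at day 15. Its difference was 2.30 (SE 0.19, adjusted p = 0.000159). It overlaps Col4a2, the gene of the partner chain, which had effects of -3.81 and -1.58. Lama1, a laminin chain, was at 159.7 and 154 against 13.7 and 14.1 and then at 64.8 and 60.5 against 15.4 and 16.04. Visceral endoderm and liver genes did not move as one, with 17 of 33 more negative (51.5%, beside 17.7% of all genes) and 8 more positive (24.2%, beside 17.5%). Apoa1 and Afp of the yolk sac and liver reversed, whereas Cubn, an uptake receptor chosen after its values were seen, shrank from -3.53 to -2.21. The day 0 side of Afp was low, at FPKM 0.0651 and 0.0567 in WT and 2.93 and 0.928 in Hira-null. At day 15 Afp was at 54.4 and 56.1 in WT and at 0.108 and 0 in the labelled libraries.

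Effects grew toward higher for 79 genes (0.551%) and toward lower for 67 (0.467%). Igf2, an imprinted growth factor that shares exons with Igf2as, was at FPKM 10.5 and 12.2 in WT and 15.2 and 18.9 in Hira-null at day 0, and at 164 and 162 and 819.6 and 804 at day 15, a difference of 1.76 (SE 0.15, adjusted p = 0.000163). Its imprinted neighbour H19 lay the other way, with effects of -4.76 and -5.15. Cdkn1c, an imprinted inhibitor of cyclin-dependent kinases, was at 15.1 and 20.1 against 35.1 and 29.5 and then at 15.1 and 15.5 against 109 and 137, a difference of 2.08 (SE 0.22). Plagl1, an imprinted zinc finger gene, was at 1.73 and 1.91 against 0.111 and 0.216 and then at 109.6 and 114 against 6.59 and 6.05, a difference of -2.67 (SE 0.18). Over 45 imprinted genes tested, 13 differences were more positive (28.9%, beside 17.5% of all genes). Another 12 were more negative (26.7%, beside 17.7%, and 6 without either WT day 15 library). Both shares were above those of all genes, and the list had no common direction. Gpx3, a secreted glutathione peroxidase on chromosome 11, grew from -0.84 to -2.29, and Lmx1a, a roof plate and midbrain factor, from 0.47 to 1.95. With voom the calls for Plagl1 and Lmx1a were lost. Higher effects shrank for 80 genes (0.558%) and lower effects for 168 (1.17%). Among these, Mat2a, which makes the methyl donor of the cell, went from -2.34 to -0.50, and Hs3st1, a heparan sulphate enzyme, from -2.92 to -0.46.

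Neural lists moved toward higher. Of 45 neural progenitor genes tested, 27 had a more positive difference (60%, beside 17.5% of all genes, with 15 under voom and 17 with a pseudocount of 0.1). Only 2 had a more negative one, and 23 were in the gained higher class (beside 6.84% of all genes). Their summed FPKM at day 0 was 473 to 491 in WT and 516 to 519 in Hira-null, and at day 15 it was 1046 and 1109 in WT and 1974 and 2200 in the labelled libraries. Of 71 neuronal genes, 39 were more positive (54.9%, with 26 under voom and 24 with a pseudocount of 0.1) and 4 more negative. By class 29 gained an effect (beside 12.6% of all genes), 27 of them toward higher, 6 reversed (beside 5.15%) and 4 grew (beside 1.02%). The sums at day 15 were 470.0 and 470.7 against 966 and 988. Vgf, a neuropeptide precursor, was 1 of 4 neuronal genes that lost the effect, and its difference of 2.37 (SE 0.25) was also more positive. It went from 19.5 and 21.3 against 3.08 and 3.52 at day 0 to 6.15 and 5.08 against 4.75 and 7.12 at day 15. Protocadherin genes, cell adhesion genes of neurons, were by limma more negative for 0 and more positive for 22 of 49 (44.9%, beside 17.5% of all genes). That count was 14 without Hira-null day 0 replicate 1 or 2 or WT day 15 replicate 1, 9 with voom, 12 with a pseudocount of 0.1 and 10 with GC content and length subtracted, which 27 of the genes allowed. Clustered protocadherins share near-identical exons, so their values are uncertain. At an unadjusted p under 0.05 limma found 28 more positive and 0 more negative, and voom found 0 more negative.

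Hox genes, which pattern the body axis, had a more negative difference for 21 of 33 tested (63.6%, beside 17.7% of all genes, and 15 with voom). It was more positive for 0 by limma (0 at an unadjusted p under 0.05 and 0 by voom). The median effect was 0.244 at day 0 and -0.734 at day 15. The direction was shared by the clusters on 4 chromosomes, with 6 of 10 Hoxa, 4 of 9 Hoxb, 6 of 7 Hoxc and 5 of 7 Hoxd genes. Where FPKM 1 was required in at least 4 libraries, fewer Hox genes were tested and 8 were more negative. Hoxb3 was at FPKM 0.0391 or less in all day 0 libraries and at 5.96 and 6.51 against 1.69 and 2.43 at day 15, and its call was lost with voom. Hoxc13 instead lost a higher level, from 0.391 and 1.02 against 5.56 and 6.92 to 1.003 and 0.596 against 1.34 and 1.12. Endothelial genes were more negative for 19 of 41 (46.3%, beside 17.7% of all genes, and 15 with voom) and more positive for 3 (2 with voom). Blood progenitor and leukocyte genes were more negative for 17 of 30 (56.7%, and 12 with voom) and more positive for 2 (3 with voom). Each of these counts, in both directions, was lower without some single libraries. The day 15 sums were 193 and 204 against 97.0 and 105 for the endothelial and 185 and 198 against 79.6 and 89.9 for the blood list. Cdh5, a cadherin of endothelial junctions on chromosome 8, grew from -0.80 to -2.48, a call lost with a pseudocount of 0.1 and with voom.

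DNA replication and repair genes had median effects of -0.149 and -0.430. They were more negative for 18 of 52 (34.6%, beside 17.7% of all genes) and more positive for 0 by limma (0 at an unadjusted p under 0.05 and 0 by voom). The count fell to 9 without WT day 15 replicate 1 and to 11 without Hira-null day 0 replicate 2. Uhrf1, a reader of newly replicated methylated DNA, reversed from 128 and 120.5 against 184 and 178 to 57.9 and 53.7 against 38.9 and 43.8. Extracellular matrix and mesenchyme genes were more negative for 25 of 51 (49%, beside 17.7% of all genes) and more positive for 13 (25.5%, beside 17.5%). With voom 21 were more negative and 11 more positive, and the more negative count was lower without WT day 15 replicate 1. Eln, the elastin gene, gained an effect of -2.23 at day 15 from 0.38 at day 0.

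Of 35 cardiac transcription factors, 11 were more negative (31.4%, beside 17.7% of all genes) and 7 more positive (20%, beside 17.5%). Without WT day 15 replicate 1 the count of more positive factors was 0 and without WT day 15 replicate 2 it was 1, and the more negative ones numbered 8 to 9 over the libraries left out. With voom 7 were more negative and 2 more positive. By class 6 kept (beside 9.29% of all genes), 13 gained (beside 12.6%) and 3 lost the effect (beside 13.1%). Of the gained effects 6 were toward higher and 7 toward lower, and the 3 lost effects were higher at day 0. Of 38 striated muscle contractile genes, 7 were more negative (18.4%, and 4 without WT day 15 replicate 1) and 8 more positive (21.1%, and 5 without Hira-null day 0 replicate 2), shares near the 17.7% and 17.5% of all genes. Myh6, the cardiac alpha myosin heavy chain, was at FPKM 4.45 and 3.68 in WT and 1.44 and 0.805 in Hira-null at day 0, and at 42.6 and 41.8 and 26.6 and 30.3 at day 15. Its effects were -1.27 and -0.55 and its difference 0.71 (SE 0.23, adjusted p = 0.0393), which lost its call under several settings. The summed FPKM of the contractile list at day 15 was 837 and 838 in WT and 843 and 900 in the labelled libraries. Markers of other cell types moved at the same day, the neural sums being higher and the endothelial and blood sums lower in the labelled libraries, and their part in the results on cardiac factors was not tested.

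**Figure D5:**
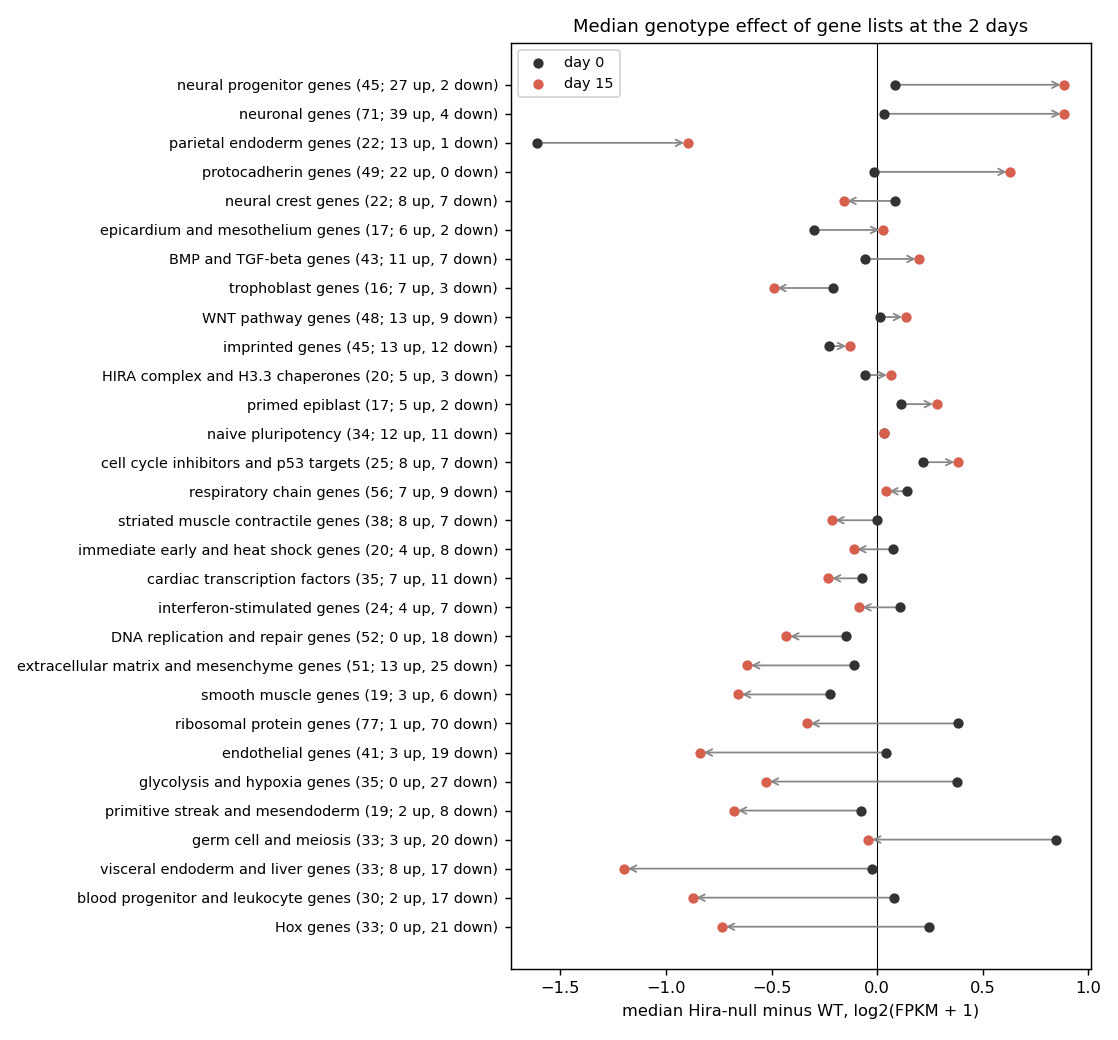
Median genotype effect in log2(FPKM + 1) (x axis) at day 0 and day 15 for each gene list with at least 15 tested members (y axis), with an arrow from day 0 to day 15 and, in brackets, the members tested and those with a difference past the test that was more positive (up) or more negative (down). Ribosomal and glycolysis genes cross from above 0 to below it, neural lists move up, Hox, blood and endothelial lists move down, and parietal endoderm genes stay below 0 with a smaller effect.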

How the data were processed

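At both days, 2 WT (W9.5) and 2 Hira-null libraries, 8 in all, were made by the authors for stranded, paired-end messenger RNA sequencing. The submitters' processing notes name Bowtie 0.12.2, DESeq2 1.6.3 and the mm9 genome. The authors deposited FPKM values for 24421 genes, with no statement in the sources used here on the use of strand. They also deposited their own comparison at each day as tables of mean counts, log2 fold changes, errors, scores and p-values, which were not used. Once gene length was allowed for, 100% of positive FPKM values were whole multiples of 1 fragment, within 0.1, which gave 6897009 to 11088705 fragments per library. These cover counting error only, and replicates differed by more, the chi-square divided by its degrees of freedom being 2.89 to 5.93. The table lists 5287 genes at 0 in every library, and 27 symbols had turned into dates, 21 of them among the tested genes.

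Values were taken as log2(FPKM + 1), with a pseudocount of 1, and a gene needed FPKM 1 in at least 2 libraries. A model of 4 group means was fitted to all 8 libraries with limma 3.58.1 (R 4.3.3), using day weights of 1.03 and 0.968 and a trended empirical Bayes prior. The adjustment was that of Benjamini and Hochberg at 0.05 over 14337 genes. The fit had 4 residual and 4.7 prior degrees of freedom. Tables were made with pandas 2.3.3 and numpy 2.4.6 in Python 3.11.15, and the fit was tested on simulated data. No p-value was computed for a list. The 32 gene lists (1201 entries, some genes in several lists, 1085 of the entries tested) were compiled from general knowledge, and members, lists and tests were chosen with earlier results of these data known. Genes named are Hira, 12 genes from those the paper's text names for its sequencing or qRT-PCR, the 6 with the largest defining effect in each class and direction at a mean FPKM of at least 5 with groups apart, and up to 4 members of each list by the size of the difference, leaving out small RNAs and unnamed models. Positions are from the NCBIM37 (mm9) annotation. GC content and length were known for 12803 tested genes (89.3%).

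The alternatives were other pseudocounts, filters and scalings, no weight, no trend, a size limit, a replicate block, voom on recovered fragments and each library left out. A curve for GC content and length and the removal of chromosomes 8 and 11 were added after the data were seen. ChIP-seq and qRT-PCR were not analysed here.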

Additional observations from a re-analysis of the deposited data

Results flagged for a closer look

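The genotype effect differed between the days by limma's test of the difference itself for 2511 genes in the more positive and 2533 in the more negative direction, which brings both counts here. Of Hira and 12 other genes, taken from those that the paper's text names for its sequencing or qRT-PCR, 7 had a difference past this test. Over all tested genes the share was 35.2%. The difference was 1.37 for Hira, -2.10 for Hand2, -1.84 for Isl1, -2.15 for Tbx2, -0.87 for Mef2c, 0.71 for Myh6 and -0.84 for Nanog. With a pseudocount of 0.1 the calls for Hand2 and Mef2c were lost. With voom those for Hand2, Isl1 and Mef2c were lost, and the value for Mef2c changed sign. Groups of 2 libraries are too small for a test of single libraries that stand apart.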

How the results depend on the processing

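With a size of at least 1 required as well, 780 and 1198 genes differed more positively and more negatively, 123 kept, 756 gained, 489 lost and 39 reversed the effect, and 309 of 1026 distinct list members, against 587, were past the test. With each library left out in turn the counts ran from 1422 to 2279 more positive, 1471 to 2403 more negative, 734 to 1282 kept, 936 to 1719 gained, 1202 to 1893 lost, 277 to 644 reversed and 420 to 558 list members, and the difference for Hira from 1.25 to 1.49. Fewer libraries remain in such fits, and the lone library of a group is assumed to vary like the others. Of the genes called, 56.6% (without WT day 15 replicate 1) to 99.6% (no weight per day) were also called under the alternatives other than the size limit. The median effect on chromosomes 8 and 11 minus that of the others, -0.372 at day 0 and -0.446 at day 15, was -0.451 and -0.512 with a pseudocount of 0.1, -0.231 and -0.308 with 5, -0.321 and -0.492 after quantile normalization and -0.426 and -0.457 with GC content and length subtracted. Among named genes with a difference past the test, the difference changed sign for Taf7l and Mef2c. It went to 0.104 for Taf7l with a pseudocount of 0.1 and 0.947 with voom, and to 0.307 for Mef2c with voom. Differences not past the test also changed sign for some named genes, such as Meis1, Srgn and Prr19 with a pseudocount of 0.1. The cause of these changes was not tested. Without the genes of chromosomes 8 and 11 the counts were 2188 and 2164, with 907 kept, 1557 gained, 1677 lost and 633 reversed. Voom called 2368 and 2398. Replicate numbers are shared by the groups but did not pair the samples (correlations of deviations from -0.097 to 0.046), and with the replicate block 2321 and 2385 genes were called and no named gene changed its call. Low genes are limited by depth, and 2 libraries per group of 1 clone cannot separate genotype from clone.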
